A study of Mus musculus with 36 samples.

Results

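Pluripotency factors, genes that hold or mark the pluripotent state, were followed in RNA from mouse cells with and without the histone methyltransferase MLL4. The members were chosen by name: Pou5f1, Nanog, Sall4, Zfp42, Utf1, L1td1, Lin28a and Lin28b, 8 of the 24284 genes in the gene-level files and all of them among the 22456 genes present in both kinds of file. No measured value served as a rule for the choice, but earlier results of these data were known when it was made.

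MLL3 (gene Kmt2c) and MLL4 (gene Kmt2d) place methyl groups on lysine 4 of histone H3, chiefly at enhancers. Pou5f1, Nanog and Sall4 encode transcription factors that bind many of the same enhancers in embryonic stem cells (ESC) and keep each other active. LIN28A and LIN28B are RNA-binding proteins that block maturation of the let-7 microRNAs, which otherwise repress growth and stem cell genes. During reprogramming, a fibroblast given Oct4, Sox2, Klf4 and c-Myc has to switch on its own copies of these genes, and Zfp42, Utf1 and Lin28a are commonly read as late signs of success.

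Every group lacked MLL3. DKO cells (MLL3-/-;MLL4-/-) also lacked MLL4, and f/f cells (MLL3-/-;MLL4flox/flox) kept the conditional allele. Libraries were made from DKO and f/f ESC grown with LIF on irradiated fibroblast feeders, from DKO and f/f embryoid bodies after 4 days in suspension without LIF, from DKO and f/f immortalised embryonic fibroblasts (MEF), and from those fibroblasts at day 20 after lentiviruses had delivered Oct4, a Sox factor that the labels do not specify, Klf4 and c-Myc. There were 2 libraries in each ESC and body group and 1 in each MEF and day-20 group, 12 in all; the labels of these samples give no strain or age and do not say how many clones stand behind a genotype. They do not say either that replicates were separate cultures. A p-value here therefore sets a difference against the spread left among these libraries only, and that spread may be technical.

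Replicate 1 of the ESC and body groups (first batch) was deposited as counts and RPKM per transcript, and replicate 2 with all MEF and day-20 libraries (second batch) as FPKM per gene. Both units are reads scaled by gene length and by sequencing depth, but the reads were counted differently, so libraries were compared only within a batch. Depth lay between 11366199 reads (f/f bodies, replicate 2) and 38264157 reads (DKO MEF). Kmt2d had 8.89 RPKM and 10.7 FPKM in DKO ESC, against 13.5 RPKM and 18.7 FPKM in f/f ESC, but 23.5 FPKM in DKO MEF against 14.4 FPKM in f/f MEF, and 24.8 FPKM in DKO day-20 cells against 12.9 FPKM in f/f day-20 cells. These values cover the gene as a whole and do not isolate the deleted part, so they check no label. Kmt2c stood between 1.8 and 3.44 in all 12 libraries, again for the gene as a whole. The 14 fibroblast and feeder markers summed to 72.0 RPKM and 324 FPKM in DKO ESC, against 58.2 RPKM and 367 FPKM in f/f ESC, and to 25.0 RPKM and 41.7 FPKM in DKO bodies, against 34.2 RPKM and 89.9 FPKM in f/f bodies.

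The promoters of members that passed a test in the comparisons that follow and had an entry, and that of Nanog, are shown so that their start regions can be compared. Each is a window of 300 bases from RefSeq (GRCm38.p6, coordinates of that build, not of the build of the deposited files), with 250 bases before the transcription start and 50 from it on, printed along the gene's strand. Capitals mark matches, on either strand, to the octamer core TTTGCAT bound by Oct4, the SOX core CATTGT and the GC box GGGCGG bound by Sp-family factors.
Pou5f1, chr17:35505782-35506081, plus strand: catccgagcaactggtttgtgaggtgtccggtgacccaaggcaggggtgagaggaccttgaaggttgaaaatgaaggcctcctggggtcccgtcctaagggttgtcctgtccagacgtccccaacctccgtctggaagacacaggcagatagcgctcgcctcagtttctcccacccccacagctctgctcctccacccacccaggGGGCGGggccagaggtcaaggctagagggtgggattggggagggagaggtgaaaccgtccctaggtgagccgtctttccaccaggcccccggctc
Nanog, chr6:122707239-122707538, plus strand: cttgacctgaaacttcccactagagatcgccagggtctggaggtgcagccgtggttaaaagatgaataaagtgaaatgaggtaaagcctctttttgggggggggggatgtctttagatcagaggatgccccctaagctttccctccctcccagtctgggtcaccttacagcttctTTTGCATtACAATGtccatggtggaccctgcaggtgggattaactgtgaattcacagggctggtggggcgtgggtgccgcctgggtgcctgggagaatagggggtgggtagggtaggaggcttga
Zfp42, chr8:43306960-43307259, minus strand: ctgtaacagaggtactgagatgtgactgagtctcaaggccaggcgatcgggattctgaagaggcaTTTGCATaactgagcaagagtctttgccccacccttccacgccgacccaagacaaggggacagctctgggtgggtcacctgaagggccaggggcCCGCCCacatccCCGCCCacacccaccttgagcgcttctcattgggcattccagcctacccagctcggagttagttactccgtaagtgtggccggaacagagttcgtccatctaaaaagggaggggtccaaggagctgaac
L1td1, chr4:98726504-98726803, plus strand: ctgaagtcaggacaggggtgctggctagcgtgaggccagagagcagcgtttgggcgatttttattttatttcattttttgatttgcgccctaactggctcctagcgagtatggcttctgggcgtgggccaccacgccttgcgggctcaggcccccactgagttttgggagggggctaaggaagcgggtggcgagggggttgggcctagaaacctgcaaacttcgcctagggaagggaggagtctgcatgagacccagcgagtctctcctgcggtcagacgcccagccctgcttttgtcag
Lin28a, chr4:134018767-134019066, minus strand: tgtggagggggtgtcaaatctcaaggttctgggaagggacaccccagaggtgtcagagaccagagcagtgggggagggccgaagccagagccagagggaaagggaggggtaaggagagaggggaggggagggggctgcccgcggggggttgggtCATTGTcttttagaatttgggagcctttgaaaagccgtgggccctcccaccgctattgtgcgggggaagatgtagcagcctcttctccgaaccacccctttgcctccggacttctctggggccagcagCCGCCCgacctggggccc
Lin28b, chr10:45470152-45470451, minus strand: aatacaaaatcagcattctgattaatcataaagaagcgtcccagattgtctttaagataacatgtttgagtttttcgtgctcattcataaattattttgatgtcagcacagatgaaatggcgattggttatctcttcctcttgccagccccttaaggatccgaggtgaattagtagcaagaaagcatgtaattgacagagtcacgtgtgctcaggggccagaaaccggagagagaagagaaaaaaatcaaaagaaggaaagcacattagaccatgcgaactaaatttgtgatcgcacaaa
With the transcription start counted as position 0, the Nanog window held an octamer core whose first base was at -75 and a SOX core on the other strand whose first base was at -67. The Zfp42 window had an octamer core at -185 and 2 GC boxes, the Lin28a window a SOX core at -96 and a GC box past the start, and the Pou5f1 window a GC box at -45. The L1td1 and Lin28b windows matched none of the 3 motifs. The Utf1 window, not printed, had 4 GC boxes. Of 32851 promoter windows in the table, 4.63% held the octamer core, 12.6% the SOX core and 35.7% the GC box, so a GC box is common in such windows. Entries were found for 7 of the 8 members, and a second entry for Pou5f1 had a SOX core. A second entry for Nanog, with a start further along, placed the same octamer and SOX cores at -151 and -143. These are letter matches and not measured binding; the chromatin samples of the series were not analysed here.

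All 8 members were read in every ESC and body library. Among these libraries Utf1 had the highest level in each of the first batch, between 425 and 524 RPKM, and Pou5f1 in each of the second, between 342 and 650.4 FPKM. Lin28b was the lowest of the 8 in all 8 ESC and body libraries, between 6.29 and 19.7. In the MEF libraries Nanog was the highest, and no other member exceeded 0.120 FPKM.

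**Figure D1:**
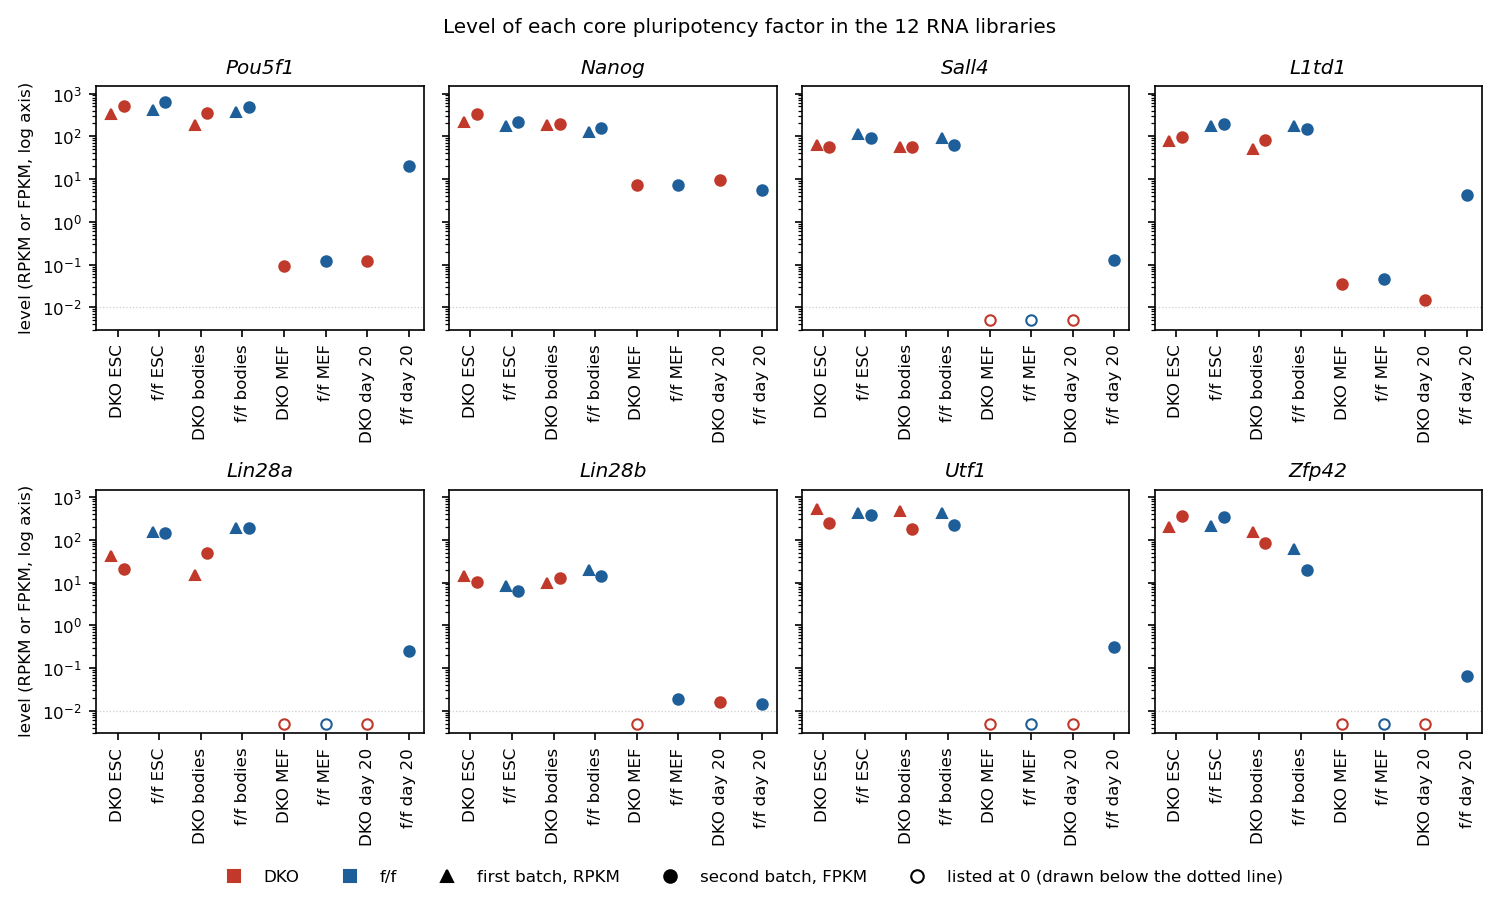
Level of each member in the 12 RNA libraries on a log axis, with RPKM for the first batch (triangles) and FPKM for the second (circles); each point is 1 library, DKO in red and f/f in blue, and open points are libraries where the gene is listed at 0. Lin28a sits between 14.8 and 49.5 in the 4 DKO ESC and body libraries and between 144 and 191 in the 4 f/f ones, and at day 20 Pou5f1 has 0.118 FPKM in the DKO library and 19.8 FPKM in the f/f library.

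The genotype comparison in ESC asked which members depend on MLL4 before differentiation. Sall4 and L1td1 fell in DKO ESC, and Lin28a had the lowest share of its f/f level of all members without passing the test. Pou5f1, Utf1 and Zfp42 had differences whose intervals include 0, and Nanog and Lin28b stood higher in both batches without passing. In limma on log2(value + 1), adjusted over all 12466 genes tested, 2 of 8 members were called lower and 0 higher, where 2.67% of all genes were called lower. The median difference over the 8 members was -0.23, against 0.02 over all genes tested.

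Sall4 (Entrez gene 99377), a zinc-finger transcription factor needed for ESC growth, had 63.0 RPKM and 57.5 FPKM in DKO ESC, against 111 RPKM and 91.2 FPKM in f/f ESC. Both DKO libraries were below the f/f library of their batch, at 56.7% and 63.1% of it. The log2 difference was -0.73 ± 0.14 (SE; limma, adjusted p = 0.0428). In the first batch the 3 transcripts of Sall4, of 5073, 3741 and 2706 bases, gave DKO to f/f ratios of 0.567, 0.573 and 0.569, so no transcript stood apart from the others.

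L1td1 (Entrez gene 381591) encodes an RNA-binding protein derived from a LINE-1 element, and in human ESC it has been found with LIN28. It had 75.7 RPKM and 97.3 FPKM in DKO ESC, against 170.6 RPKM and 190.3 FPKM in f/f ESC. The DKO libraries held 44.4% and 51.1% of the f/f level of their batch. The log2 difference was -1.06 ± 0.20 (limma, adjusted p = 0.0423).

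Lin28a (Entrez gene 83557) encodes the LIN28 protein that recruits terminal uridylyltransferases to the let-7 precursor. It had 41.3 RPKM and 20.7 FPKM in DKO ESC, against 154 RPKM and 144 FPKM in f/f ESC. The DKO libraries held 26.9% and 14.4% of the f/f level, on 2836 reads against 9847 reads in the first batch. The log2 difference of -2.30 ± 0.55 did not pass (limma, adjusted p = 0.0748; 95% interval -3.63 to -0.98), with an SE next to that of Zfp42, the widest of the members.

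Lin28b (Entrez gene 380669), the paralog that is more often studied in the nucleus, went the other way in ESC in both batches. It had 14.1 RPKM and 10.1 FPKM in DKO ESC, against 8.33 RPKM and 6.29 FPKM in f/f ESC, and the log2 difference of 0.65 ± 0.22 did not pass (limma, adjusted p = 0.153; 95% interval 0.12 to 1.18). The ratio of Lin28a to Lin28b was 2.92 and 2.06 in DKO ESC, against 18.4 and 22.9 in f/f ESC. Lin28a thus made up 74.5% and 67.3% of the summed level of both paralogs in DKO ESC, against 94.9% and 95.8% in f/f ESC.

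Pou5f1 (Entrez gene 18999), the gene of Oct4, had 338 RPKM and 515 FPKM in DKO ESC, against 409.6 RPKM and 650.4 FPKM in f/f ESC. The DKO libraries held 82.5% and 79.2% of the f/f level, and the log2 difference was -0.31 ± 0.14 (limma, adjusted p = 0.274; 95% interval -0.65 to 0.04). Nanog (Entrez gene 71950), a homeodomain factor that can sustain mouse ESC without LIF when supplied in excess, had 219.5 RPKM and 326 FPKM in DKO ESC, against 178 RPKM and 212 FPKM in f/f ESC. Its log2 difference was 0.46 ± 0.15 (limma, adjusted p = 0.140; 95% interval 0.10 to 0.82). Zfp42 (Entrez gene 22702), which encodes REX1, a marker of the naive state, had 202 RPKM and 352 FPKM in DKO ESC, against 211 RPKM and 348 FPKM in f/f ESC, with a log2 difference of -0.03 ± 0.59 (limma, adjusted p = 0.985; 95% interval -1.46 to 1.41). Utf1 (Entrez gene 22286), a chromatin-associated protein of undifferentiated cells, had 524 RPKM and 245 FPKM in DKO ESC, against 427 RPKM and 375 FPKM in f/f ESC. The 2 batches went in opposite directions for Utf1, and its log2 difference was -0.16 ± 0.27 (limma, adjusted p = 0.781; 95% interval -0.81 to 0.50).

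The feeder markers given above did not separate the genotypes in ESC: 0 of the 12 that could be tested passed in limma, 0 were at an unadjusted p under 0.05 and 0 passed in edgeR. Their part in the members' values was not tested. The calls of Sall4 and L1td1 were lost with no filter on low values (adjusted p = 0.0789 and 0.0849) and without any 1 of the 4 ESC libraries, with adjusted p between 0.171 and 0.243 for Sall4 and between 0.167 and 0.232 for L1td1, and that of Sall4 also without either f/f body library (adjusted p = 0.0591 without replicate 1 and 0.0575 without replicate 2). Leaving out either DKO body library instead brought Lin28a (adjusted p = 0.02 without replicate 1 and 0.0194 without replicate 2) and Lin28b (0.0418 and 0.0421) past the threshold in ESC.

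**Figure D2:**
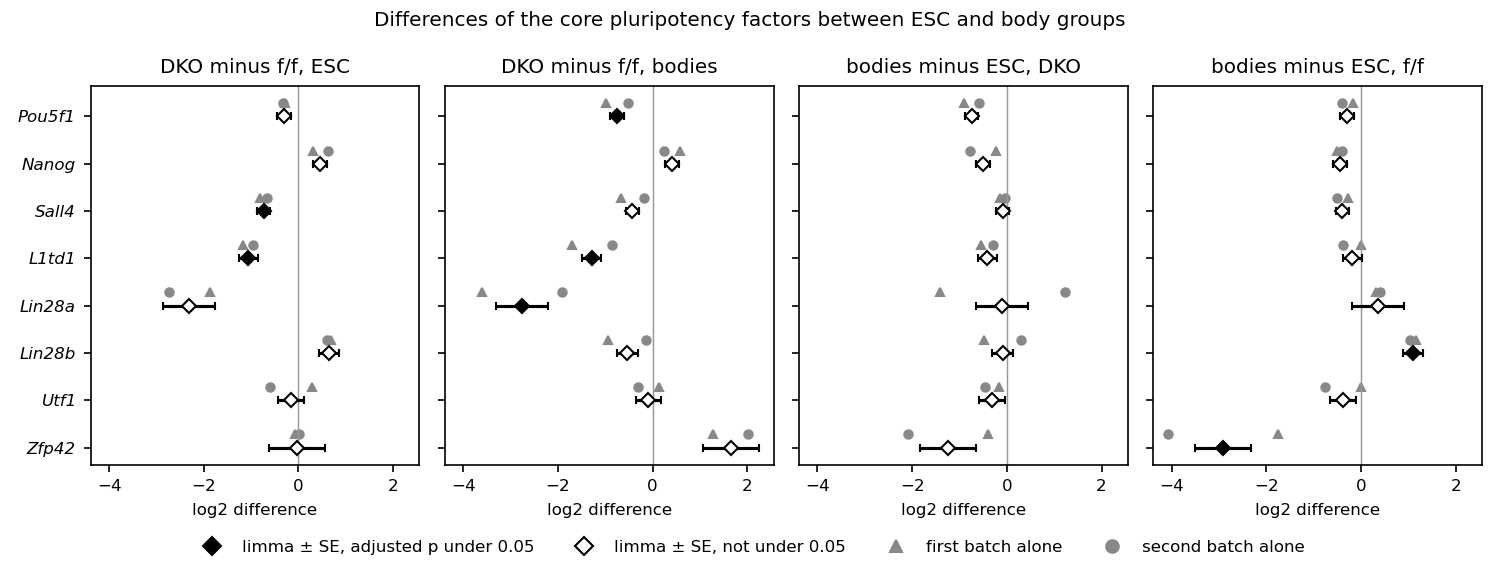
Log2 differences of the 8 members (rows) for DKO minus f/f in ESC and in bodies and for bodies minus ESC in DKO and in f/f cells, as limma estimates with their SE (diamonds, filled where the adjusted p is under 0.05) and as the difference within each batch alone (grey). L1td1 is filled in both genotype comparisons at -1.06 and -1.29, and the 2 batches of Lin28a lie on opposite sides of 0 for DKO bodies minus DKO ESC.

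In day-4 embryoid bodies the 3 members called lower in DKO were Lin28a, L1td1 and Pou5f1. In DKO bodies 1 of 12 fibroblast and feeder markers also fell in limma, Thy1 (-1.02), edgeR called 2, and 3 were at an unadjusted p under 0.05. The median of these markers was -0.48, against -0.01 over all genes, and their part in the members' values was not tested. Lin28a was the member with the smallest remaining share, L1td1 was called lower as in ESC, and Pou5f1 now passed the test. None of the 8 was called higher, although Zfp42 stood higher in both DKO libraries. Of all 12466 genes, 3.61% were called lower. The members' median was -0.48, against -0.01 over all genes.

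Lin28a had 14.8 RPKM and 49.5 FPKM in DKO bodies, against 191 RPKM and 189.9 FPKM in f/f bodies. The DKO libraries held 7.77% and 26.1% of the f/f level of their batch, on 1195 reads against 12392 reads in the first batch. The log2 difference was -2.76 ± 0.55 (limma, adjusted p = 0.0487). Lin28b had 9.83 RPKM and 12.7 FPKM in DKO bodies, against 19.7 RPKM and 14.0 FPKM in f/f bodies, a log2 difference of -0.54 ± 0.22 that did not pass (limma, adjusted p = 0.230; 95% interval -1.06 to -0.01). The ratio of Lin28a to Lin28b was 1.51 and 3.90 in DKO bodies, against 9.67 and 13.5 in f/f bodies.

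**Figure D3:**
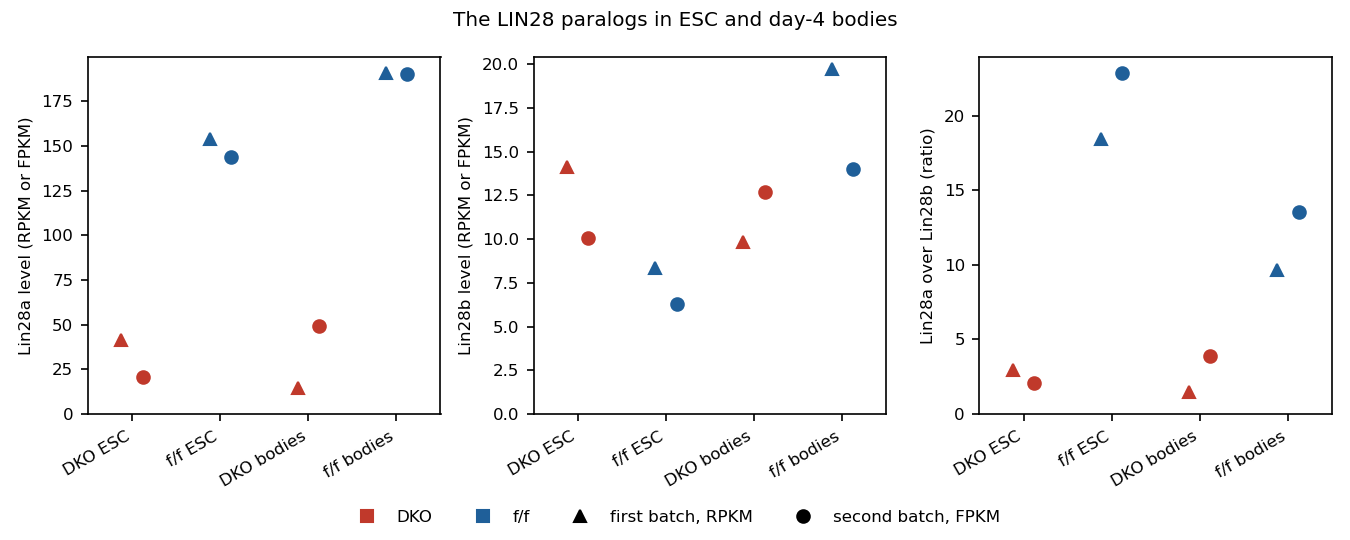
Levels of Lin28a and of Lin28b (RPKM in the first batch, triangles; FPKM in the second, circles) and the ratio of Lin28a to Lin28b in each ESC and body library, DKO in red and f/f in blue. The ratio lies between 1.51 and 3.90 in the 4 DKO libraries and between 9.67 and 22.9 in the 4 f/f libraries, while Lin28b is higher in DKO ESC and lower in DKO bodies than in the f/f library of the same batch.

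L1td1 had 51.7 RPKM and 79.8 FPKM in DKO bodies, against 172 RPKM and 146 FPKM in f/f bodies. The DKO libraries held 30.1% and 54.5% of the f/f level, and the log2 difference was -1.29 ± 0.20 (limma, adjusted p = 0.0250). Pou5f1 had 181 RPKM and 342 FPKM in DKO bodies, against 362 RPKM and 489 FPKM in f/f bodies. That was 50.0% and 69.8% of the f/f level, with a log2 difference of -0.76 ± 0.14 (limma, adjusted p = 0.0427). Both Pou5f1 transcripts of the first batch gave nearly the same ratio, 0.50 for that of 1353 bases and 0.494 for that of 991 bases.

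Zfp42 had 153 RPKM and 82.3 FPKM in DKO bodies, against 62.1 RPKM and 19.7 FPKM in f/f bodies, 2.46 and 4.18 times the f/f level. The log2 difference of 1.65 ± 0.59 did not pass (limma, adjusted p = 0.184; 95% interval 0.21 to 3.08). Nanog had 188 RPKM and 189 FPKM in DKO bodies, against 126 RPKM and 159.5 FPKM in f/f bodies, with a log2 difference of 0.41 ± 0.15 (limma, adjusted p = 0.182; 95% interval 0.06 to 0.77). Sall4 had 56.6 RPKM and 56.2 FPKM in DKO bodies, against 91.0 RPKM and 64.0 FPKM in f/f bodies, with a log2 difference of -0.43 ± 0.14 (limma, adjusted p = 0.147; 95% interval -0.76 to -0.10). Sall4 was thus below its f/f level in both batches at both stages, and passed the test in ESC alone. Utf1 had 466 RPKM and 178 FPKM in DKO bodies, against 425 RPKM and 220.2 FPKM in f/f bodies, again in opposite directions between batches, with a log2 difference of -0.09 ± 0.27 (limma, adjusted p = 0.882; 95% interval -0.74 to 0.57). In bulk RNA, fewer cells that express a gene and less of its RNA per cell cannot be told apart for any of these differences.

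Of these 3 calls, those of Lin28a and Pou5f1 ended under median-of-ratios scaling (adjusted p = 0.0553 for Lin28a and 0.0546 for Pou5f1) and in edgeR on recovered reads (0.0785 and 0.0567), and that of Lin28a also with a pseudocount of 0.1 (0.0537), under each of which L1td1 kept its own; with no filter on low values all 3 were lost (0.0951 for Lin28a, 0.103 for Pou5f1 and 0.0548 for L1td1). L1td1 and Lin28a lost the call without either f/f ESC library, either f/f body library or replicate 1 of DKO bodies, with adjusted p up to 0.118 for L1td1 and 0.242 for Lin28a, whose difference was -1.74 without that DKO library and -3.77 without replicate 2 of DKO bodies. Pou5f1 kept its call solely without replicate 2 of DKO bodies (adjusted p = 0.0328, and up to 0.228 without another library), and Lin28b passed there as well (-0.92, adjusted p = 0.0328).

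In f/f cells 2 members differed between bodies after 4 days of differentiation and ESC. Zfp42 fell in f/f bodies and Lin28b rose, while the other 6 did not pass. Of all 12466 genes, 8.13% were called higher and 3.86% lower in f/f bodies, 1014 and 481 genes by the deposited scaling and 835 and 695 by median-of-ratios scaling. Zfp42 had 62.1 RPKM and 19.7 FPKM in f/f bodies, against 211 RPKM and 348 FPKM in f/f ESC, so that 29.4% and 5.66% of its ESC level remained. The log2 difference was -2.91 ± 0.59 (limma, adjusted p = 0.0315). Lin28b had 19.7 RPKM and 14.0 FPKM in f/f bodies, against 8.33 RPKM and 6.29 FPKM in f/f ESC, a gain of 2.37 and 2.23 times. Its log2 difference was 1.1 ± 0.22 (limma, adjusted p = 0.0302). In the same comparison 2 of 12 fibroblast and feeder markers fell in limma, S100a4 (-2.10) and Col3a1 (-1.65). Of the 12, edgeR called 3, and 7 were at an unadjusted p under 0.05 in limma. The part of these markers in the members' values was not tested.

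The other 6 members were still read at 58.7% or more of the f/f ESC level in f/f bodies. The f/f bodies held 88.4% and 75.3% of the f/f ESC level of Pou5f1 (log2 difference -0.29 ± 0.14; limma, adjusted p = 0.211) and 124% and 132% of that of Lin28a (0.36 ± 0.55; limma, adjusted p = 0.691). For Nanog the share was 70.7% and 75.2% (-0.45 ± 0.15; limma, adjusted p = 0.0928). Sall4 stood at 82.0% and 70.2% of the ESC level, L1td1 at 101% and 76.9%, and Utf1 at 99.7% and 58.7%. With no filter on low values both calls ended (adjusted p = 0.0616 for Zfp42 and 0.0547 for Lin28b). The Zfp42 call was lost without any 1 of the 4 f/f libraries, with adjusted p between 0.0596 and 0.200, and that of Lin28b without those or replicate 1 of DKO ESC, with adjusted p between 0.0501 and 0.1905.

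In DKO cells 0 of the 8 members passed between bodies and ESC, where 0.826% of all genes, 103 of 12466, were called in either direction by limma, and 143 in edgeR. Of the 8 members 2 were at an unadjusted p under 0.05 and 0 passed in edgeR. Pou5f1 held 53.6% and 66.3% of its DKO ESC level in DKO bodies (log2 difference -0.74 ± 0.14; limma, adjusted p = 0.0767), and Zfp42 held 75.7% and 23.4% (-1.24 ± 0.59; limma, adjusted p = 0.309). Lin28a differed in opposite directions between batches, at 35.9% of its ESC level in the first and at 239% in the second. Lin28b held 69.7% and 126%, and Nanog 85.6% and 58.1%. In the same comparison 2 of 12 fibroblast and feeder markers fell in limma, S100a4 (-2.77) and Thy1 (-1.31), 4 passed in edgeR and 10 were at an unadjusted p under 0.05, with a list median of -1.75 against -1.08 in f/f cells. Their part in the members' values was not tested.

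The effect of the genotype was then compared between bodies and ESC. None of the 8 members passed this interaction, as none of the 12466 genes did (0%; 1704 genes, 1 of them a member, were at an unadjusted p under 0.05, and edgeR called 0). The members with the largest estimates were Zfp42 (1.67 ± 0.84; limma, adjusted p = 0.448) and Lin28b (-1.18 ± 0.31; limma, adjusted p = 0.204). For Lin28b the genotype difference had opposite signs in ESC and bodies in both batches. A difference between stages in the response of any member to MLL4 loss was therefore not shown.

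Fibroblasts normally keep these genes silent, and the MEF libraries gave the level from which reprogramming started. Sall4, Lin28a, Utf1 and Zfp42 had 0 reads in both MEF libraries, and Lin28b had 0 reads in DKO MEF and 3 reads in f/f MEF. Pou5f1 had 5 reads in each, which was 0.0906 FPKM in DKO MEF and 0.120 FPKM in f/f MEF, and L1td1 had 4 reads in each. Nanog stood apart at 7.17 FPKM (615 reads) in DKO MEF and 7.26 FPKM (471 reads) in f/f MEF, 2.20% and 3.42% of the level in ESC of the same genotype. Near-identical Nanog copies exist in the mouse genome, and how shared reads were treated is not known here. The gene length behind the Nanog FPKM was taken as 2242 bases, a length found by search, against 1356 bases in the first batch. Whether the MEF reads came from Nanog itself was not tested. Of the 8 members only Nanog was over a mean of 1 FPKM in MEF, and DKO and f/f MEF had a ratio of 0.987 for it (exact 95% interval 0.874 to 1.12, for counting error only).

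At day 20 the titles call the cells iPSC, but no member came near its ESC level in either library, so they are called day-20 cells here. Pou5f1, Nanog and L1td1 reached between 2.20% and 3.04% of the ESC level in f/f day-20 cells and the other 5 members stayed under 0.24%. In the day-20 library labelled DKO only Nanog exceeded 1%, and 4 members had 0 reads. With 1 library per group these are descriptions of 4 libraries with no replicate check and no test, and all intervals cover counting error only. The 14 fibroblast markers summed to 9974 FPKM in DKO and 13874 FPKM in f/f day-20 cells, against 3305 FPKM in DKO and 4072 FPKM in f/f MEF, and none was at 0. Collagen genes weigh heavily in these sums, with Col3a1 at 4606 FPKM in DKO and Col1a1 at 6061 FPKM in f/f day-20 cells. Of 13 markers over a mean of 1 FPKM in DKO cells, 6 rose past 2-fold from MEF and 2 fell. In f/f cells 9 of 14 rose and 0 fell.

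Pou5f1 had 0.118 FPKM (4 reads) in DKO day-20 cells, against 19.8 FPKM (713 reads) in f/f day-20 cells. That was 0.0230% of the DKO ESC level (exact 95% interval 0.00626% to 0.0589%) and 3.04% of the f/f ESC level (2.81% to 3.27%). Pou5f1 in f/f day-20 cells was 165 times its f/f MEF level (interval 70.3 to 509), whereas the DKO library stayed at the level of DKO MEF, 4 reads against 5. A gene value does not separate reads of the delivered Oct4 from those of the cell's own gene. Sox2, the Sox gene usually delivered with Oct4, had 0.243 FPKM in DKO and 9.36 FPKM in f/f day-20 cells, against 0.0532 FPKM in DKO and 0.127 FPKM in f/f MEF. Klf4 had 8.38 FPKM in DKO and 17.9 FPKM in f/f day-20 cells, against 21.9 FPKM in DKO and 18.8 FPKM in f/f MEF. Myc had 105.4 FPKM in DKO and 30.7 FPKM in f/f day-20 cells, against 105.6 FPKM in DKO and 26.4 FPKM in f/f MEF. How much of each factor the lentiviruses supplied in either genotype was not tested.

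L1td1, which was not delivered, had 0.0145 FPKM (1 read) in DKO day-20 cells, against 4.19 FPKM (308 reads) in f/f day-20 cells, the level in DKO being 0.0149% (interval 0.000378% to 0.0832%) of DKO ESC and that in f/f 2.20% (1.96% to 2.46%) of f/f ESC. It had 0.0355 FPKM in DKO MEF and 0.0470 FPKM in f/f MEF, 4 reads each. The f/f day-20 level was 288 times the DKO level, with an exact 95% interval from 51.4 to 11423 that rests on the 1 DKO read. Nanog had 9.68 FPKM (508 reads) in DKO day-20 cells, against 5.49 FPKM (308 reads) in f/f day-20 cells, 2.97% and 2.59% of ESC of the same genotype. Since Nanog already stood at 7.17 and 7.26 FPKM in DKO and f/f MEF, its day-20 share of ESC stands beside MEF shares of 2.20% in DKO and 3.42% in f/f.

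The remaining members were scarcely read. Lin28a had 0 reads in DKO day-20 cells, against 22 reads (0.253 FPKM, 0.176% of f/f ESC) in f/f day-20 cells, where the floor of 3 reads would be 0.178% of the lower DKO ESC level. Sall4 had 0 reads in DKO and 16 reads in f/f day-20 cells, the f/f value being 0.138% of f/f ESC. Utf1 had 0 reads in DKO and 9 reads in f/f (0.0827% of f/f ESC), and Zfp42 had 0 reads in DKO and 3 reads in f/f (0.0191%). Set against a floor of 3 reads in DKO, the f/f day-20 level was 4.99-fold for Sall4, 6.86-fold for Lin28a and 2.81-fold for Utf1. These folds leave out counting error in the f/f reads. The exact counting intervals for f/f over DKO began lower, at 3.61 for Sall4, 5.13 for Lin28a and 1.85 for Utf1. For Zfp42, at 3 reads in f/f, the interval began at 0.387, so no higher level in f/f is shown. Lin28b had 2 reads in each day-20 library, 0.157% of DKO ESC and 0.235% of f/f ESC.

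**Figure D4:**
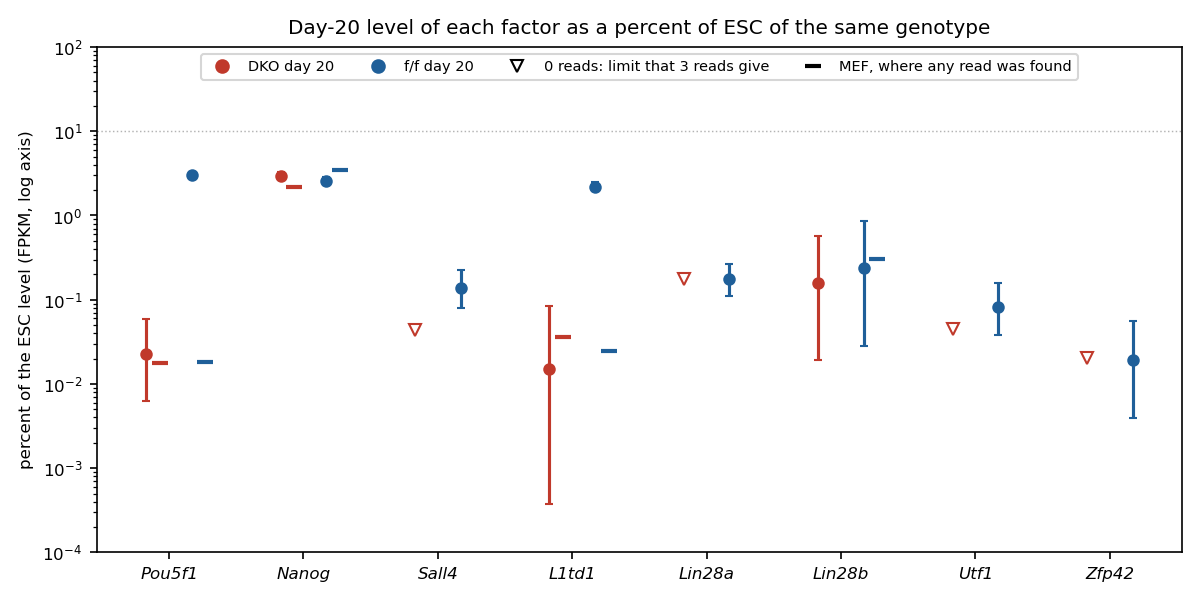
Day-20 FPKM of each member as a percent of the second-batch ESC library of the same genotype on a log axis, DKO in red and f/f in blue, with exact 95% counting intervals; open triangles mark 0 reads and sit at the share that 3 reads would give, and short bars show the MEF level where any read was found. All points lie under the dotted line at 10%, Pou5f1 and L1td1 are at 0.0230% and 0.0149% in DKO and at 3.04% and 2.20% in f/f, and Nanog is at 2.97% in DKO and 2.59% in f/f with MEF at a like height.

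No member reached 10% of the ESC level at day 20 in either genotype. The median share over the 8 members was 0.206% in f/f day-20 cells, and none is given for DKO day-20 cells, where 4 of the 8 had 0 reads. Counting differences of 2-fold or more on log2(FPKM + 1) over genes with a mean of at least 1 FPKM in the pair of libraries, Pou5f1 and L1td1 were lower in DKO than in f/f day-20 cells (11.3% of all genes were) and higher in f/f day-20 cells than in f/f MEF (7.17% of all genes were). Both passed that minimum solely through the f/f day-20 library, in which they are high, so their direction follows from the filter and nothing is read from these counts. The same holds against ESC, where all 8 members were lower in day-20 cells of both genotypes (22.7% of all genes in DKO and 23.1% in f/f).

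The genes whose pattern was most like that of a member were sought over the 8 second-batch libraries, whose points share the contrast of higher ESC and body levels with lower MEF and day-20 levels. Over 8964 genes with a mean of at least 1 FPKM and a maximum of at least 10 FPKM, the 3 with the highest Pearson correlation of log2(FPKM + 1) were named for each member, as a description. For Pou5f1 they were Spint2 (r = 0.999), Fxyd6 (0.996) and Ears2 (0.996); Spint2, a membrane-bound protease inhibitor of epithelia, had 0.117 FPKM in DKO and 8.84 FPKM in f/f day-20 cells, against 0.161 FPKM in DKO and 0.261 FPKM in f/f MEF, and was also the third for L1td1 after Mtg1 and Ccdc88c. For Lin28a they were Cgn, Frem2 and Cldn6 (r = 0.997, 0.997 and 0.995). Cldn6, a tight-junction protein of embryonic epithelia, had 11.9 FPKM in DKO and 62.2 FPKM in f/f ESC, and 32.3 FPKM in DKO and 165 FPKM in f/f bodies.

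For Zfp42 the closest were Zfp981, Fgf4 and Mreg (r = 0.999 for each). Fgf4, the growth factor through which ESC leave the naive state, had 48.5 FPKM in DKO and 48.6 FPKM in f/f ESC, and 14.5 FPKM in DKO and 6.48 FPKM in f/f bodies. Sall4 and Utf1 were each other's closest gene (r = 0.9995), followed for both by Trim71 and Syt9. For Nanog they were Fam169a, Akap8 and Taf7 (r = 0.997, 0.996 and 0.995), and for Lin28b Slain1, Qprt and Wdr86 (0.998, 0.996 and 0.996). Of the 8964 genes, between 9 for Pou5f1 and 65 for Sall4 had a correlation of at least 0.99 with a member.

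The let-7 axis around the LIN28 proteins was read through 20 genes: processing enzymes, partners and published let-7 targets. In DKO ESC 2 of 20 fell and none rose in limma, where 2.67% of all genes were called lower, and edgeR called 4; the list median was -0.08, against 0.02 over all genes. The 2 were Igf2bp2, an RNA-binding let-7 target, at 9.13 RPKM and 8.73 FPKM in DKO ESC, against 27.8 RPKM and 42.0 FPKM in f/f ESC (-1.83 ± 0.18, adjusted p = 0.0116), and Prdm1, the gene of BLIMP1 (-1.51 ± 0.20, adjusted p = 0.0184). In DKO bodies 5 of 20 fell and none rose in limma (3.61% of all genes were called lower), and edgeR also called 5; the list median was -0.13, against -0.01 over all genes. Hmga2, a chromatin protein and the best-known let-7 target, had 2.34 RPKM and 6.69 FPKM in DKO bodies, against 12.6 RPKM and 33.9 FPKM in f/f bodies (-2.10 ± 0.13; limma, adjusted p = 0.00598). Nr6a1 (-1.86 ± 0.21), Igf2bp2 (-1.52 ± 0.18), Arid3b (-1.11 ± 0.14) and Arid3a (-1.21 ± 0.21) made up the rest.

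In f/f cells Hmga2 (1.66), Arid3b (0.99) and Nr6a1 (1.29) rose in bodies relative to ESC and Prdm1 fell (-1.39), among 4 of 20 that rose and 2 that fell (limma; 8.13% and 3.86% of all genes), and edgeR called 7. The others were Igf2bp3 (0.61) and Mycn (-1.58); these and Arid3a were named after their values were seen. In DKO cells 0 of 20 passed in limma or edgeR and 4 were at an unadjusted p under 0.05, and the difference between stages in the genotype effect on Hmga2 did not pass (-2.21 ± 0.19; limma, adjusted p = 0.0657). The let-7 microRNAs themselves were not analysed here, and whether they moved with Lin28a was not tested.

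Of 25 other genes of the pluripotency network, 1 fell and none rose in DKO ESC in limma, a share near the 2.67% of all genes called lower, and edgeR called 2. The list median was -0.45, against 0.02 over all genes. That gene was Fbxo15, an F-box protein and a classical Oct4 target, at 5.01 RPKM and 6.38 FPKM in DKO ESC, against 59.8 RPKM and 70.9 FPKM in f/f ESC (-3.31 ± 0.36; limma, adjusted p = 0.0135). In DKO bodies Zscan10, a zinc-finger factor of ESC, fell (-1.28 ± 0.18, adjusted p = 0.0203), Tex19.1, a gene of germ cells and ESC, rose (2.61 ± 0.47; limma, adjusted p = 0.0377), and 23 of 25 were not called, with a list median of 0.53, against -0.01 over all genes. Of all genes, 3.61% were called lower there and 103 of 12466 higher. In edgeR 2 of the 25 were called, and 9 were at an unadjusted p under 0.05 in limma. In f/f bodies 9 of 25 fell relative to f/f ESC and none rose in limma, where 3.86% of all genes were called lower, and edgeR called 11. The list median was -1.37, against 0.06 over all genes, and the 9 included Fbxo15 (-2.72), Tcl1 (-3.25), Tfcp2l1 (-2.90) and Esrrb (-3.18). In DKO bodies 1 of 25 fell relative to DKO ESC, Tdgf1 (-1.61 ± 0.23, limma, adjusted p = 0.0490), and edgeR also called 1. Of all genes, 0.826% were called there in either direction. The list median was -0.47, against 0.04 over all genes, and 9 of 25 were at an unadjusted p under 0.05.

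Markers of the germ layers changed in the same body libraries in which Zfp42 stood higher and Pou5f1 lower in DKO. Of the 11 that could be tested, 7 fell and 1 rose in DKO bodies in limma, and edgeR called 6. Of all genes, 3.61% were called lower there and 103 of 12466 higher. The list median was -2.12, against -0.01 over all genes. In f/f bodies 7 rose and none fell relative to f/f ESC in limma, where 8.13% of all genes were called higher, and edgeR called 6. Tbxt, the mesoderm factor Brachyury, had 1.08 RPKM and 1.05 FPKM in DKO bodies, against 69.5 RPKM and 45.1 FPKM in f/f bodies (-4.79 ± 0.57; adjusted p = 0.0135), and Mixl1, Foxa2 and Eomes were lower as well (-3.45, -2.01 and -2.21). The marker that rose was Sox1, an early neural factor (2.10 ± 0.37; limma, adjusted p = 0.0344), named after its value was seen. In DKO cells 0 of 11 passed between bodies and ESC in limma or edgeR, and 1 was at an unadjusted p under 0.05. The share of undifferentiated cells in the bodies was not measured, so its part in the members' levels was not tested.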

How the data were processed

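RNA was measured in 12 of the 36 samples; the other 24 (chromatin and input) were not analysed here. Per the file headers, the first batch was deposited as read counts and RPKM per RefSeq transcript, and the second as FPKM per Entrez gene. The submitters' processing notes name mm9, bedtools 2.16, SICER 1.1 and CASAVA 1.8.2; an aligner, annotation, strand setting and rule for shared reads were not given in the sources used here. Hence overlapping, antisense and near-identical genes, Pou5f1 and Nanog among the members, are uncertain.

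Transcripts were joined to genes through RefSeq accessions (GRCm38.p6 table, names only; 28436 of 29082 matched), and each gene took the value of its most-read transcript. Depth was recovered from counts, RPKM and lengths, and for FPKM from the steps of low genes, of which 90.5% to 92.2% came out whole within 0.02 reads. Second-batch reads of members used the first-batch length, except for Pou5f1 (1443 bases) and Nanog (2242 bases), whose lengths were found by search. The second-batch reads of Pou5f1 and Nanog and the intervals on them rest on those lengths. Fold changes are on log2(value + 1), which understates changes of low genes. limma 3.58.1 (R 4.3.3, trend, two-sided) was fitted to the 8 ESC and body libraries with 4 groups and the batch as a block, for 12466 genes with a mean of at least 1 (3 residual and 3.27 prior degrees of freedom, Benjamini-Hochberg, threshold 0.05). Libraries of a batch deviated together from their group means (correlations of 0.864 to 0.954 across genes). Each group holds a library of either batch, so these deviations include the difference in unit and counting between batches. The correlations therefore cannot show that replicates were paired, and the pairing comes from the labels' numbering and file kinds. As an alternative, edgeR 4.0.16 (quasi-likelihood) was run on the deposited counts with the recovered reads, with TMM or DESeq2 1.42.0 size factors. Tested on simulated data for DKO against f/f ESC over 12466 genes, the fit recovered 81 of 100 genes changed 2-fold and 98 of 100 changed 4-fold, with 13 false calls. The simulated noise was independent and normal with the fit's own variances, and changed genes were drawn from those above a minimum level in f/f ESC. These counts therefore check that the fit runs as written and cannot show that its assumptions hold for these libraries. Intervals on reads are exact (95%) and a floor is 3 reads; both cover counting error only.

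The members, gene lists and tests were chosen with earlier results of these data known. All 8 members are named, then for each the 3 genes most like it, and of each other list at most 4 genes per comparison. Those were the genes with the smallest p among the called, otherwise the largest differences. Arid3a, Igf2bp3, Mycn and Sox1 were named beyond that rule, after their values were seen, to complete small counts.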

Additional observations from a re-analysis of the deposited data

Results flagged for a closer look

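For Nanog and L1td1 the difference between day-20 cells and MEF had opposite signs in the 2 genotypes. For Nanog the difference of day 20 minus MEF on log2(FPKM + 1) was 0.39 in DKO cells and -0.35 in f/f cells. For L1td1 it was -0.030 in DKO cells, where 1 read stood against 4, and 2.31 in f/f cells. The ratio of L1td1 in DKO day-20 cells to DKO MEF was 0.409 (exact 95% interval 0.0083 to 4.13), so no movement in DKO cells is shown. Each group is 1 library, so neither difference between genotypes was tested.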

How the results depend on the processing

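No called result of a member changed sign. Most of the results counted next were not called in the main fit, so they had no call to lose. Of 7 alternatives that keep all libraries, the calls of Sall4 and L1td1 in ESC each held in 5. In bodies that of L1td1 held in 5, that of Pou5f1 in 2 and that of Lin28a in 1. Between stages in f/f cells those of Lin28b and Zfp42 each held in 5. Of 280 results of members under alternatives that keep all libraries, 259 stayed on their side of the threshold and 21 lost a call; with 1 library left out, 279 of 320 stayed, 36 lost a call and 5 gained one.

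Without the replicate block the counts of genes called were 0 in DKO against f/f ESC, 2 in bodies, 0 between bodies and ESC in f/f cells and 1 in DKO cells, and no member was called (0 in ESC, 0 in bodies, 0 between stages in f/f cells). With no filter on low values, more genes were tested and 207 were called in ESC, 289 in bodies and 1 between stages in DKO cells, with 0 members called in ESC, 0 in bodies and 0 between stages in f/f cells. Under median-of-ratios scaling, in edgeR with TMM and in edgeR with DESeq2 size factors, 1 member (L1td1) was called lower in DKO bodies under each; the cause was not tested.

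Leaving out 1 library at a time, which leaves a lone library assumed to vary like the other groups, gave 0 to 722 genes and 0 to 4 members in ESC, 0 to 789 genes and 0 to 4 members in bodies, 0 to 1882 genes and 0 to 2 members between stages in f/f cells, 0 to 111 genes and 0 to 0 members in DKO cells, and 0 to 0 for the interaction. At a 1.5-fold threshold 3 members, not 2, differed between DKO and f/f day-20 cells, since Nanog, higher in DKO, joined Pou5f1 and L1td1; the other fold counts of members kept their numbers under the other pseudocount, thresholds and scaling tried. Day-20 and MEF groups have 1 library each, and members at 0 to 3 reads there were at the limit of depth.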
